A study of Mus musculus with 68 samples.

Results

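The genes of the proteasome were followed in single midbrain dopamine (DA) neurons. Members were all genes of the deposited table whose symbol starts with Psm, a letter from a to g and a number, which gave 55 of 36172 genes. RNA had been drawn through the recording pipette after patch-clamp recording (Patch-seq) from DA neurons of the ventral tegmental area (VTA) of 12-month-old male and female mice, 33 cells from 3xTg and 35 from WT. 3xTg mice were homozygous for 3 human transgenes, APP Swe and Tau P301L among them, and WT mice came from a separate line without the transgenes that was kept in parallel on the same hybrid C57BL/6 and 129 background. Each deposited sample was 1 cell and no label names its mouse, so each genotype counts as 1 sample. Therefore no test between genotypes was made, every interval below is a 95% interval that covers counting error only, and ranges over cells do not describe animals. Line and transgenes cannot be told apart in this design, nor can fewer copies per cell be told from less RNA drawn from a cell.

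Cell labels run in number blocks, 3xTg 24 to 55 and 76 to 92 and WT 1 to 22, 57 to 74 and 94 to 96. What the blocks stand for is not given, so values are shown for the first blocks (3xTg 24 to 55 against WT 1 to 22) and for the second blocks (3xTg 76 to 92 against WT 57 to 74) beside the whole. No label pairs a 3xTg block with a WT block, so this pairing by label order was a choice, and the block ratios depend on it. Depth was 492505 to 1678624 counts per cell, with 3695 to 10426 genes detected, and both were higher in 3xTg (medians 1194460 counts and 8511 genes) than in WT (982390 and 7476). The study kept a cell only if Th, Slc6a3 and Slc18a2 were present and markers of other cells (Pvalb, Tmem119, P2ry12 and Aldh1l1) were not, so these genes say nothing further about the cells. Outside that selection Ddc had a count in all 68 cells, Nr4a2 in 64 and Pitx3 in 14. Of the other astrocyte genes Gja1 had a count in 8 cells, with 1047 in WT 73, and Gfap and Aqp4 in 3 each. Of the endothelial genes Cldn5 and Pecam1 were at 0 and Flt1 had a count in 2 cells, whereas the oligodendrocyte gene Mbp had one in 67 and the GABA gene Gad2 in all 68. In the deposited counts Pvalb was above 0 in 3 cells, Tmem119 in 1 and P2ry12 in 7. At least 1 of 8 microglial genes had a count in 66 cells, mostly Cx3cr1 (59 cells), and the microglial sum reached 5741 CPM (counts scaled to 1000000 per cell) in a 3xTg cell and 3854 in a WT cell, against medians of 36.6 and 50.0.

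The proteasome is the barrel-shaped protease that degrades proteins tagged with ubiquitin. Its core particle stacks rings of alpha subunits (Psma genes), which form the gate, and of beta subunits (Psmb genes), of which beta1, beta2 and beta5 cut the substrate. A regulatory particle of AAA ATPases (Psmc genes) and further subunits (Psmd genes) recognises, deubiquitinates and unfolds the substrate, and Psme and Psmg genes encode alternative activators and assembly chaperones. In cells exposed to interferon the subunits Psmb9, Psmb10 and Psmb8 replace beta1, beta2 and beta5 and give the immunoproteasome, and failure of protein clearance is a long-studied theme in neurons that accumulate amyloid and tau.

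Promoters of the beta5 and beta1 genes and of their immunoproteasome replacements are printed because the data below separate these pairs most widely. Each is given 5′ to 3′ on the gene's own strand, from 250 bases before to 50 bases after the RefSeq start site in GRCm38.p6, the assembly named mm10 elsewhere, with motif matches in capitals. The motifs searched on both strands were the antioxidant response element TGACNNNGC, the gamma-activated site TTCNNNGAA and the CCAAT box, which do not overlap in these 4 windows.
Psmb5, beta5, chr14:54617946-54618245, minus strand: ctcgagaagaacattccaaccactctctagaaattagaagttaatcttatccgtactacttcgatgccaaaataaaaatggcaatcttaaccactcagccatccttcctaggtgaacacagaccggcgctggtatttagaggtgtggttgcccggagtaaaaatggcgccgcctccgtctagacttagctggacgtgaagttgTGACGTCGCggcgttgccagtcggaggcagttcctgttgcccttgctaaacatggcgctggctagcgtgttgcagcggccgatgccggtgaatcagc
Psmb8, replacement of beta5, chr17:34197945-34198244, plus strand: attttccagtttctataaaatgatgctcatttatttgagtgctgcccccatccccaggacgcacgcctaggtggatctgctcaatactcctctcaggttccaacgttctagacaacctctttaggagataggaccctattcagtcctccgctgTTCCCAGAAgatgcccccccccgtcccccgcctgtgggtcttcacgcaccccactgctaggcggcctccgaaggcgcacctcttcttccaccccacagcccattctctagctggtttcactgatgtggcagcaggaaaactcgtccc
Psmb6, beta1, chr11:70525107-70525406, plus strand: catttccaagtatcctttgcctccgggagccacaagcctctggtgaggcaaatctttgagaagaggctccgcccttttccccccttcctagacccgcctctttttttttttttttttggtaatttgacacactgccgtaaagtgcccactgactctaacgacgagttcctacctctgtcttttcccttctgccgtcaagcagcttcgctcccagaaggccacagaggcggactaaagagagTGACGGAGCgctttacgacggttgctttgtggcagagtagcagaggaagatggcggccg
Psmb9, replacement of beta1, chr17:34187281-34187580, minus strand: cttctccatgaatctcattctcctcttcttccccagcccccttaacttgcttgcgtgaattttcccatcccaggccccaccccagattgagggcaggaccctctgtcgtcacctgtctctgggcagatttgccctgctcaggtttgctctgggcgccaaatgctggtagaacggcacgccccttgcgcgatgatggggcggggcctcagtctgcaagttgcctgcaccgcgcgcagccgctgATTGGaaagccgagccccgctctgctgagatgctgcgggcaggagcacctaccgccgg

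The Psmb5 and Psmb6 windows hold an antioxidant response element, 47 and 9 bases before the start site, and neither immunoproteasome window does. The Psmb8 window holds a gamma-activated site 97 bases before its start, and Psmb9 holds a CCAAT box on the opposite strand 8 bases before its start. These letters are common. Of 45 member promoters (42 genes matched; 13 members had no entry), 6 hold the antioxidant response element (13.3%, those of Psmb5, Psmb6, Psmc6, Psmd12, Psmd9 and Psme4), against 12.4% of all 32851 promoters. The gamma-activated site occurs in 3 member promoters (6.67%, those of Psmb8, Psmd2 and Psmg1) against 8.30% of all, and CCAAT in 15 (33.3%) against 37.4%. A match is a description of sequence and not a site of binding.

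Every constitutive subunit that the name rule takes in was widely detected in DA neurons. Of the 55 members 48 had a count in some cell, and 42 passed the filter, which asked for 1 or more counts in no fewer than 50% of the 68 cells. In all, 7304 genes passed. All 31 constitutive subunits with a Psm name (7 alpha, 7 beta, 6 ATPases and 11 further regulatory particle subunits) were among the 42. The rule leaves out Adrm1 and Shfm1, regulatory particle subunits with other names, which are given with the pathway genes below. The members that had counts but did not pass were Psmb8, Psmb9, the nuclear activator Psme3, the chaperones Psmg3 and Psmg4, and Psmc3ip, a meiotic recombination factor that the name rule takes in although it is no subunit. Psma8, the alpha subunit of germ cells, and 6 pseudogenes (Psmb5-ps, Psmb6-ps, Psmb6-ps2, Psmb7-ps1, Psmb7-ps2 and Psme2b-ps) were at 0 in every cell. A count of 0 for Psma8 allows a sum of up to 3 counts per genotype, or 0.0817 CPM in 3xTg and 0.0882 CPM in WT.

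Levels of transcripts, as CPM per kb of transcript over all cells, differed widely between subunits that are equimolar in the particle. The highest levels per length were 526 for the beta1 gene Psmb6, 364 for the ATPase Psmc5 and 350 for the beta3 gene Psmb3. The 31 constitutive subunits spanned 20.6-fold around a median of 179, down to 25.6 for the lid subunit Psmd3. Median levels per length were 254 for the beta ring, 192 for the ATPases, 180 for the alpha ring and 123 for the other regulatory particle subunits. Those of the dedicated helpers were lower, with medians of 35.6 for the assembly chaperones, 22.5 for the activators and the inhibitor and 13.1 for the replacement catalytic subunits. At the bottom stood Psme4, the PA200 activator, at 5.51, Psmb9 at 2.68 and Psmc3ip at 0.394. The sums of Psmb3 were 249 and 289 CPM (3xTg, then WT), a log2 ratio of -0.21 (-0.07 in the first and -0.32 in the second blocks). Psmc3ip had 33 counts in 3 3xTg cells and 3 counts in 2 WT cells, a log2 ratio of 3.35 (1.68 to 5.70). That ratio was 2.06 without 3xTg 85, which held 55.6% of its counts, and 4.91 without WT 2. The order of levels was close in the genotypes (Spearman rho 0.93 across the 31 constitutive subunits, which share libraries and are not independent).

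**Figure D1:**
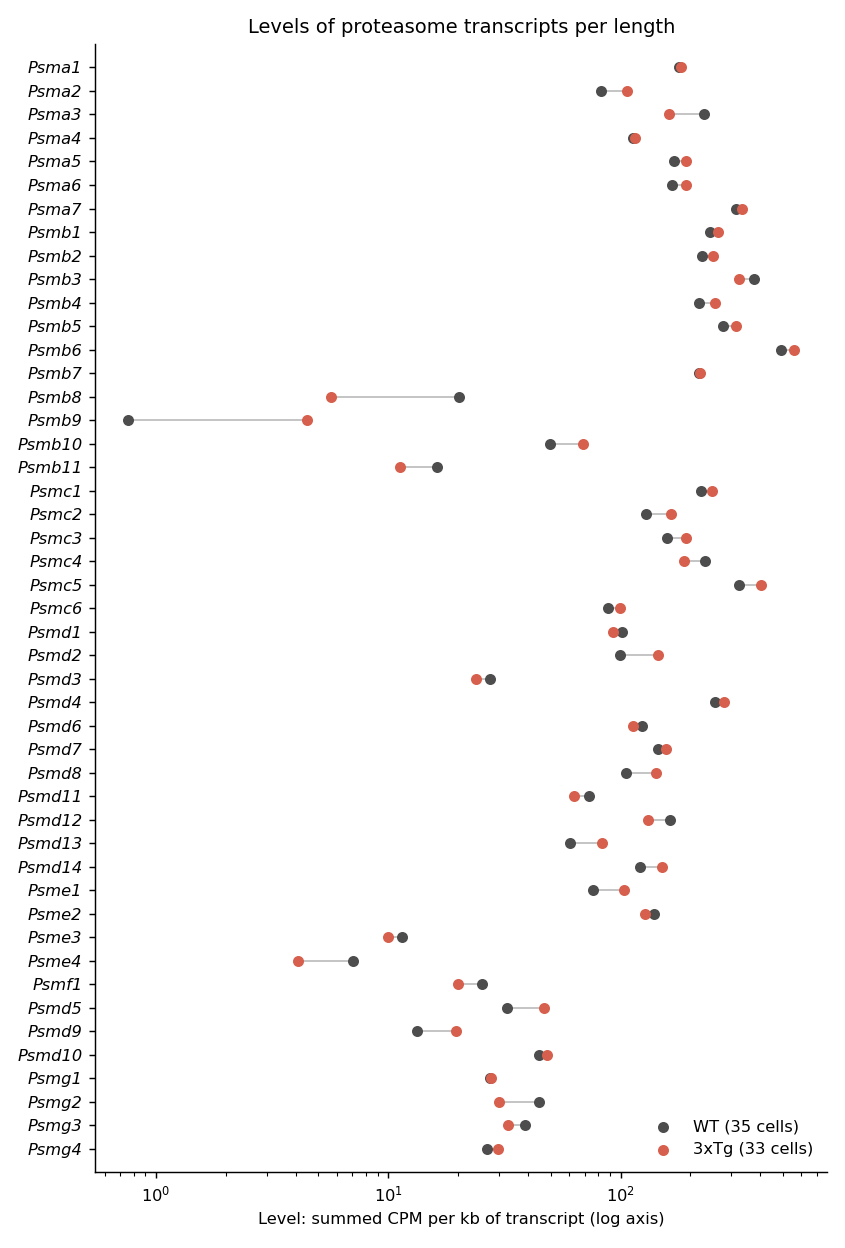
Level per length (summed CPM per kb of transcript, log axis) of each member with more than 3 counts in each genotype, with WT in grey and 3xTg in red; lines join the genotypes. The middle of the 31 constitutive subunits lies between 121 and 238, most chaperones and activators lie lower, and Psmb8 and Psmb9 show the widest gaps between genotypes.

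The total proteasome message took a similar share of the RNA in both genotypes. The 55 genes together held 5104 to 14033 CPM per cell in 3xTg (median 9253) and 4232 to 12992 CPM in WT (median 8654). The ranges overlapped almost fully. Summed over cells the members reached 9438 CPM in 3xTg (9406 to 9469) and 8820 CPM in WT (8788 to 8852), a log2 ratio of 0.10. By block the medians over cells were 8685 and 9433 CPM in 3xTg and 9311, 8617 and 8587 CPM in WT. By these medians 3xTg was the lower of the genotypes in the first blocks and the higher in the second. By sums 3xTg was the higher in both, at 9176 against 9054 CPM in the first blocks and 9813 against 8684 CPM in the second. The 6 DA markers together were also higher in 3xTg, at 19597 CPM against 15422 CPM in WT by sums (17407 and 15565 in the first blocks, 22737 and 15754 in the second), with log2 ratios of 0.32 for Th, 0.38 for Slc6a3, 0.43 for Slc18a2, 0.39 for Nr4a2, 0.21 for Ddc and 0.22 for Pitx3. Their part in the member ratios was not tested. For the 31 constitutive subunits alone the sums were 8501 CPM in 3xTg and 7913 CPM in WT.

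**Figure D2:**
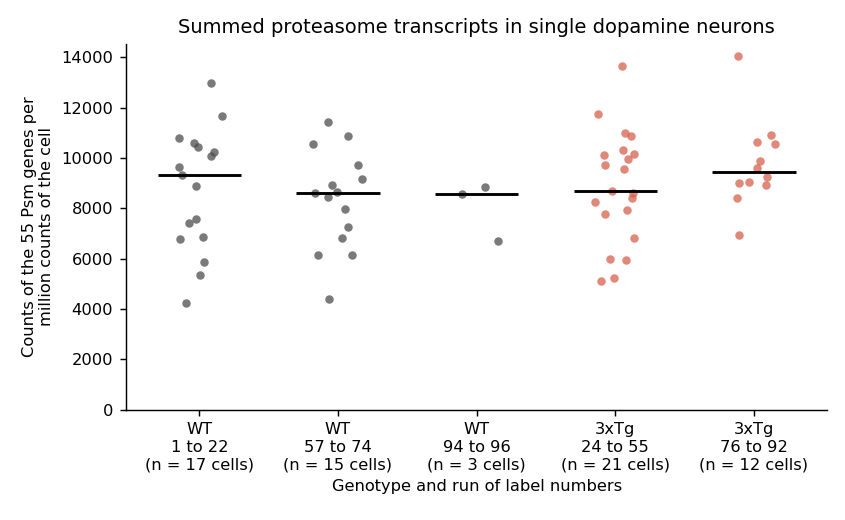
Summed CPM of the 55 Psm genes in each cell (y axis) by genotype and block of label numbers; points are cells and bars are medians. Cells spread from 4232 to 14033 CPM, and the medians of the 5 blocks, from 8587 to 9433 CPM, differ by less than the cells within any of the 4 larger blocks.

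More members were detected per 3xTg cell, as were more genes in general. A 3xTg cell had counts for 24 to 47 members (median 42) and a WT cell for 18 to 45 (median 37). At a common depth of 700471 drawn counts, which 2 cells of 3xTg and 5 of WT did not reach, the medians were 42 and 37.5. The number of members detected followed the number of genes detected (r = 0.81 over 68 cells, which share library depth as a common factor), whereas their CPM did not (r = -0.06). The cells with the fewest members were WT 6 and WT 96, with 18 each, and WT 11, with 21. They had 3770 to 4273 genes. Since a cell without a count enters a mean over cells as 0, the means over cells given below were taken relative to the median of all 7304 genes, which was itself 0.51 higher in 3xTg on the log2(normalized count + 1) scale.

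**Figure D3:**
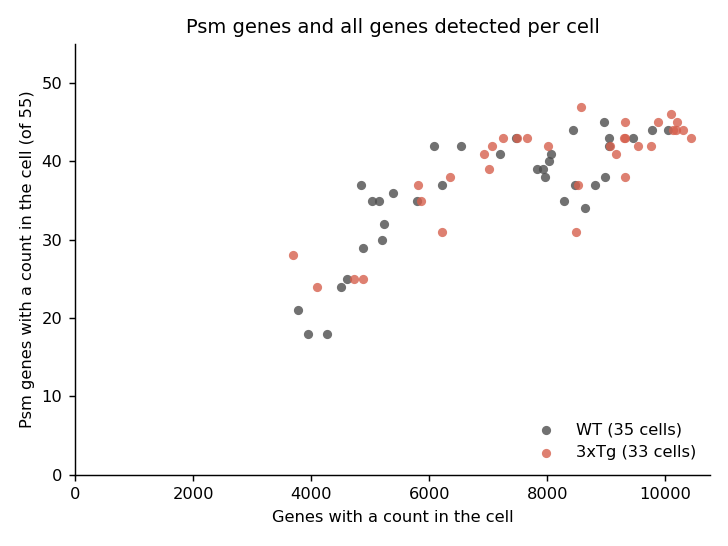
Psm genes with a count in a cell (y axis, of 55) against all genes with a count in that cell (x axis); points are cells, WT in grey and 3xTg in red. The points rise together (r = 0.81), and the cells with the fewest members, at 18, have fewer genes than most others.

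Across cells the constitutive subunits varied together more than other genes. The median pairwise correlation of log2(normalized count + 1) among the 31 subunits was 0.30 over 68 cells, against 0.06 among the 3264 genes with a count in at least 80% of cells and 0.10 among all that passed. These cells share capture and depth, and the subunits have higher counts than most genes, so the value is a description. The subunits that followed the others most closely were Psma2 (r = 0.66), Psmb1 (0.64) and Psmb4 (0.60). Psmc6 (0.07), Psmd3 and Psmd1 followed them least.

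By summed counts the members differed little between genotypes. The median log2 ratio of 3xTg over WT was 0.13 over the 42 members that passed, against -0.05 over all genes tested, with a range from -0.79 to 0.57. A ratio above 0 was found for 29 of 42 members, against 46.8% of all genes. Members are counted more deeply than most genes, and among genes with a mean normalized count of at least 100 a ratio above 0 was found for 24 of 32 members against 59.8%, with medians of 0.16 and 0.10. None of the 42 was at least 1.5-fold higher in 3xTg (13.2% of all genes), and 1, Psme4, was at least 1.5-fold lower (17% of all genes). At a mean normalized count of at least 100 the shares were 0 of 32 members against 9.78% higher and 0 of 32 against 6.81% lower. The median size of the log2 ratio was 0.21 for members and 0.38 for all genes, or 0.20 and 0.28 at that level. Several members lay just under 1.5-fold (a log2 ratio of 0.58), so the count higher depended on the scaling, with 1 by CPM per cell, 4 with TMM factors and 6 with DESeq2 size factors, where 14.1%, 17.5% and 20.4% of all genes were higher.

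The blocks differed in how the members stood. Their median log2 ratio was 0.01 in the first blocks and 0.28 in the second, while all genes went from 0.13 to -0.16. Genes with a mean normalized count of at least 100 moved the same way as the members, from 0.07 to 0.17, where the 32 members of that level went from 0.03 to 0.20. Ratios were above 0 in both pairs of blocks for 18 members (25.5% of all genes), below 0 in both for 8 (24.9%), and of opposite sign for the other 16 (49.5%). The genotype ratio was larger in size than the ratio between the first and second blocks within either genotype for 13 members, against 23.2% of all genes. At the higher level these counts were 16 of 32 above 0 in both (36.1% of genes), 7 below 0 in both (18%) and 11 larger in size than the ratios between blocks (26.3%). By the mean over cells relative to the median gene, 13 members were at least 1.5-fold higher in 3xTg (24.3% of all genes) and 4 at least 1.5-fold lower (23.1%), with a median of 0.21. At the higher level 9 of 32 members against 33.2% of genes were higher and 2 against 11.3% lower, with medians of 0.13 for members and 0.26 for genes. Over all members that passed, the median was -0.16 in the first blocks and 0.40 in the second, when filter and centre were set within the blocks.

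**Figure D4:**
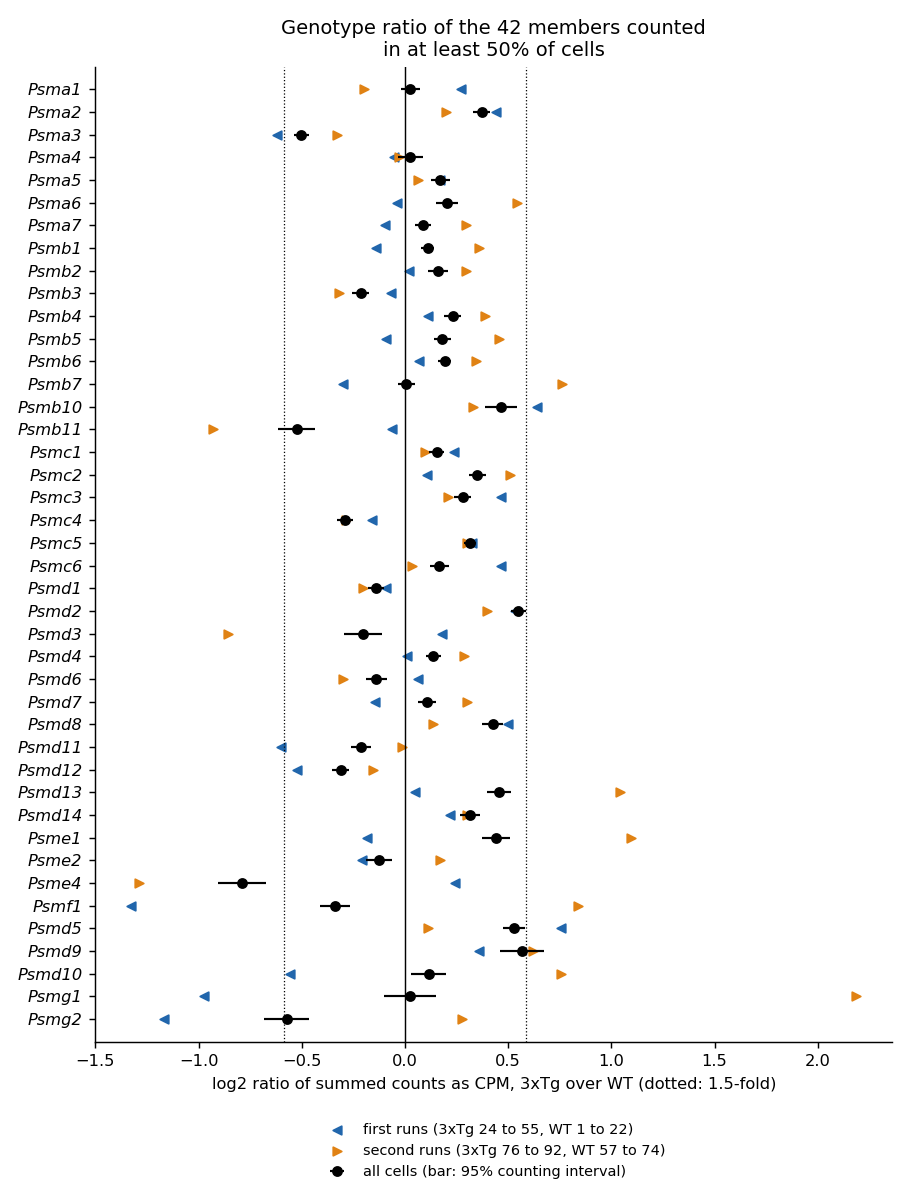
Log2 ratio of summed counts, 3xTg over WT (x axis, with dotted lines at 1.5-fold), for the 42 members that passed, ordered by role; black points with 95% counting intervals are all cells, blue triangles the first blocks and orange triangles the second. The constitutive subunits lie between -0.50 (Psma3) and 0.55 (Psmd2) over all cells, and activators and chaperones show the widest gaps between blocks.

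In the alpha ring, 6 of 7 members had a ratio above 0 and the median log2 ratio was 0.09. Psma3 stood apart. It had 0 to 753 normalized counts in 3xTg cells (median 277) and 0 to 1425 in WT cells (median 344), and fewer 3xTg cells reached the upper part of that range. Its sums were 298 CPM in 3xTg and 422 CPM in WT, a log2 ratio of -0.50 (-0.54 to -0.47), with -0.62 in the first and -0.33 in the second blocks and -0.02 between WT blocks and 0.27 between 3xTg blocks. Psma2, detected in all 68 cells, went the other way, with 312 CPM in 3xTg and 241 CPM in WT and ratios of 0.44 and 0.20 in the blocks. For Psma1, the sums were 219 and 215 CPM, a log2 ratio of 0.03 (-0.02 to 0.07). Yet 32 of 33 3xTg cells and 28 of 35 WT cells had a Psma1 count, and its mean over cells was 1.30 higher in 3xTg relative to the median gene. The measures thus part for Psma1, where the higher mean rests on fewer cells at 0. In the blocks its ratio by sums was 0.27 and -0.20, and its mean over cells was 2.22 and 0.34 higher. By that mean the WT blocks differed by 1.24. Psma1 and Psmd14 are in the list of changed genes that the study chose on these cells, so their differences are not independent evidence.

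In the beta ring, 6 of 7 members had a ratio above 0, the median was 0.16, and none went beyond 0.23. By the mean over cells the median of the beta ring was -0.12, the opposite sign. By sums over all cells the 3 catalytic subunits had log2 ratios of 0.01 to 0.19, while their median cells lay further apart. Psmb6 (beta1) had 0 to 2785 normalized counts per 3xTg cell (median 375) and 0 to 2200 per WT cell (median 254), with 446 and 391 CPM in sum and log2 ratios of 0.07 and 0.35 in the blocks. Psmb7 (beta2) had medians of 239 and 176 and sums of 255 and 253 CPM, a log2 ratio of 0.01 that split into -0.30 in the first and 0.76 in the second blocks. Psmb5 (beta5) had 0 to 657 normalized counts in 3xTg (median 287) and 0 to 1542 in WT (median 123), with 283 and 249 CPM and ratios of -0.09 and 0.46 in the blocks. The genotypes overlapped for each of these genes, although the highest Psmb5 values were those of WT cells.

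Of the immunoproteasome subunits, Psmb10 was widely detected and Psmb8 and Psmb9 were rare. Psmb10 (replacing beta2) had a count in 28 of 33 3xTg cells, from 0 to 454 normalized counts (median 69.1), and in 25 of 35 WT cells, from 0 to 187 (median 40.3). Its sums were 90.2 and 65.4 CPM, a log2 ratio of 0.46 (0.39 to 0.54), with 0.64 and 0.33 in the blocks. Psmb10 thus took 23.9% of the beta2 message per length in 3xTg and 18.6% in WT, although the blocks ranged from 12.8% to 31.3% in WT and from 22.9% to 25.2% in 3xTg. Its share was larger in 3xTg than in WT in the first blocks (22.9% against 13.4%) and smaller in the second (25.2% against 31.3%).

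Psmb8 (replacing beta5) was counted in 5 of 33 cells of 3xTg and in 7 of 35 of WT, and the median cell of either genotype was at 0. Summed over cells it reached 9.26 CPM in 3xTg (8.30 to 10.3) and 32.9 CPM in WT (31 to 34.9), or 1.78% and 6.80% of the beta5 message per length. By block that share was 2.05% and 1.39% in 3xTg and 6.28%, 2.84% and 32.2% in WT. The WT sum rested on few cells, with 343 counts in WT 20, 271 in WT 7 and 232 in WT 96, and the 3xTg sum rested mostly on 208 counts in 3xTg 49. The log2 ratio of -1.83 was -3.15 without 3xTg 49 and -1.36 without WT 20. Of the 12 cells with Psmb8, 11 also had a count of a microglial gene, as did 55 of the 56 cells without it. WT 7 held 6 of the 8 microglial genes and 3569 microglial counts, while WT 20, the cell with the most Psmb8, held none. By sums the lists of microglial, oligodendrocyte (86.1 and 278 CPM), astrocyte (2.26 and 33.5 CPM) and GABA genes (29.1 and 45.6 CPM) were also higher in WT than in 3xTg. The 8 microglial genes together held 168 CPM in 3xTg and 517 CPM in WT, with C1qb at 76.2 and 321, Aif1 at 16.8 and 84, C1qa at 16.8 and 50.3 and, in the opposite direction, C1qc at 21.7 and 6.17. The oligodendrocyte gene Mbp was at 76.3 and 257 CPM. The part of RNA from other cells in the Psmb8 values was not tested.

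Psmb9 (replacing beta1) had a count in 2 3xTg cells and 1 WT cell, with sums of 6.02 and 1.03 CPM, and 80.9% of all its counts lay in the cell 3xTg 43. That cell held 7 of 8 microglial genes and 3967 microglial counts, the microglial maximum of 3xTg. Without it the log2 ratio of Psmb9 turned from 2.55 to -1.40. Only the cell 3xTg 85 had both Psmb8 and Psmb9.

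**Figure D5:**
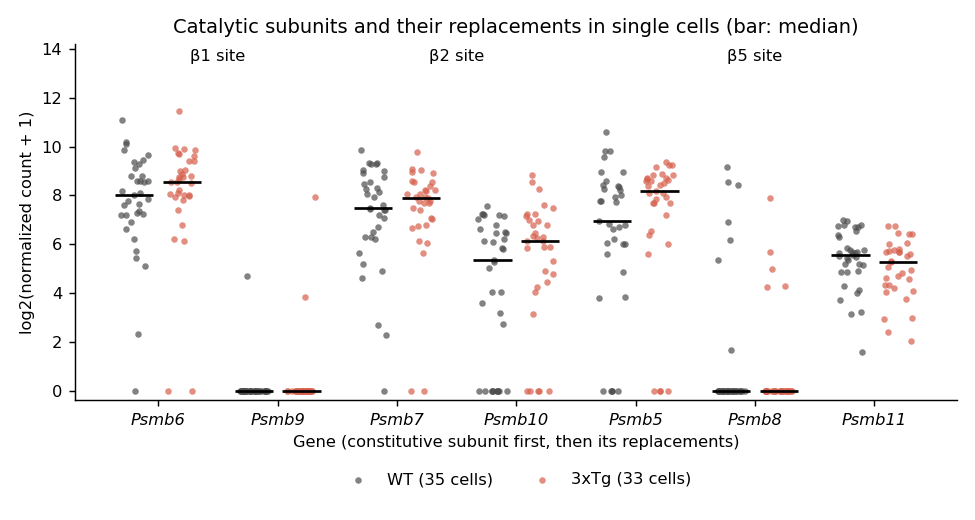
Expression as log2(normalized count + 1) (y axis) of the 3 catalytic subunits and their replacements (x axis) in single cells, WT in grey and 3xTg in red, with bars at the median of each genotype. The constitutive genes and Psmb10 overlap between genotypes, Psmb8 and Psmb9 are at 0 in most cells, and Psmb11 is above 0 in every cell.

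Psmb11, the beta5 variant of cortical thymus epithelium, had a count in all 68 cells, which among members was otherwise true only of Psma2. The gene is a single exon of 4247 bases at chr14:54625310-54629556, near Psmb5 on the same chromosome. It had 3.07 to 106 normalized counts in 3xTg cells (median 37.5) and 2.02 to 126 in WT cells (median 45.5), with sums of 47.7 and 68.6 CPM. The log2 ratio of -0.53 (-0.62 to -0.44) was -0.06 in the first and -0.93 in the second blocks, while the WT blocks differed by 0.66. Its coefficient of variation over cells was lower than that of all but 2.34% of the 1798 genes of like mean level (within 0.5 log2), whose median was 1.64. Its profile over the 68 cells was most like those of Gm5607 (r = 0.84) and H2-Q4 (0.78), and its r with Psmb5 was -0.24. Of its counts 85.3% were not whole numbers (tolerance 0.001), against 8.47% for Psmb5, a median of 91.5% for members that passed and 62.7% for all genes that passed. Fractional counts mean that the table splits some reads, and how it splits them is not given, so reads shared with other loci cannot be told from thymus subunit message.

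The 6 ATPases of the regulatory particle base had a median log2 ratio of 0.22, with 5 above 0 in both pairs of blocks. Psmc5, the most abundant per length, had 0 to 1682 normalized counts in 3xTg (median 499) and 2.27 to 1166 in WT (median 357). Its sums were 529 and 425 CPM, with a log2 ratio of 0.31 (0.28 to 0.35) that was alike in the blocks (0.32 and 0.30). Psmc4 was the exception, at 271 CPM in 3xTg and 332 CPM in WT, with -0.16 and -0.29 in the blocks. By sums the blocks thus gave one sign for each of these 6 genes. By the mean over cells relative to the median gene they did not for Psmc5 (-0.30 and 0.55), Psmc1 (0.19 and -0.24) and Psmc4 (-1.31 and 0.000965).

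Among the 11 further regulatory particle subunits 6 had a ratio above 0, with a median of 0.11. Psmd2, a large scaffold subunit that docks ubiquitin receptors, had 0 to 3207 normalized counts in 3xTg (median 348) and 0 to 828 in WT (median 193). Its sums were 433 and 296 CPM, a log2 ratio of 0.55 (0.51 to 0.58), with 0.53 and 0.40 in the blocks against 0.16 and 0.02 between blocks within WT and 3xTg. The cell 3xTg 24 held 8.06% of its counts, and the ratio was 0.39 without it. Psmd14, the deubiquitinase that removes ubiquitin chains, had sums of 232 and 186 CPM and ratios of 0.22 and 0.30 in the blocks. Psmd14 was counted in 31 of 33 cells of 3xTg and in 27 of 35 of WT, and its mean over cells was 1.42 higher relative to the median gene. Psmd13, a lid subunit, reached 166 and 121 CPM, a log2 ratio of 0.45, of which 0.05 was seen in the first and 1.04 in the second blocks.

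Activators and chaperones had lower median levels than the subunits, and their median log2 ratios lay further apart between blocks. Those of members that passed were -0.20 and 0.50 for activators and the inhibitor and -0.56 and 0.62 for chaperones. The 31 constitutive subunits had 0.05 and 0.21. Single genes broke this order, with Psme3 and Psmd9 closer between blocks than the subunits Psmb7 (-0.30 and 0.76) and Psmd13 (0.05 and 1.04). Psme2, at 133 CPM per kb, also lay above the subunit Psmd3, at 25.6. Psme1 and Psme2, which encode the PA28 activator as partners in 1 ring, lie near each other at chr14:55578494-55581527 and chr14:55587440-55591101. Psme1 had 0 to 366 normalized counts in 3xTg (median 107) and 0 to 384 in WT (median 57.2), with 115 and 84.9 CPM and log2 ratios of -0.18 in the first and 1.09 in the second blocks. Psme2 had 112 and 122 CPM, a log2 ratio of -0.13. The partners thus had ratios of opposite sign over all cells, and the same sign within either pair of blocks (Psme2, -0.21 and 0.17). The opposite sign rested on few counts, as the ratio of Psme2 turned to 0.02 without the cell WT 94, which is in neither pair.

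Psme4, which of the 42 members that passed was furthest below WT, had 0 to 128 normalized counts in 3xTg (median 5.08) and 0 to 174 in WT (median 4.10), so the median cells were alike. Its sums were 26.5 and 45.8 CPM, a log2 ratio of -0.79 (-0.91 to -0.67). It was 0.24 in the first and -1.29 in the second blocks, and the WT blocks differed by 1.48, more than the genotypes. Leaving out 1 cell gave -1.07 (without 3xTg 45) to -0.58 (without WT 95, which put it under 1.5-fold). Psme3 had 26.6 and 30.5 CPM in 15 of 33 and 14 of 35 cells, with log2 ratios of -0.29 and -0.31 in the blocks, and its ratio of -0.20 over all cells ranged from -0.65 (without 3xTg 49) to 0.40 (without WT 14). The inhibitor Psmf1 (PI31) had 75.9 and 96.1 CPM, with log2 ratios of -1.33 and 0.84 in the blocks, and the cell WT 20 held 13.2% of its counts, without which its ratio over all cells went from -0.34 to 0.00875. Single cells went the other way than these sums, with counts in 26 of 33 3xTg and 19 of 35 WT cells, medians of 75.9 and 4.12 normalized counts, and a mean over cells 0.75 higher in 3xTg relative to the median gene.

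The chaperones of core particle assembly are Psmg1 to Psmg4, and those of the regulatory particle base are Psmd5, Psmd9 and Psmd10. Psmd9 had the largest ratio of the 42 members that passed. It had 0 to 368 normalized counts in 3xTg (median 41.2) and 0 to 211 in WT (median 8.36), with 51 and 34.4 CPM, a log2 ratio of 0.57 (0.46 to 0.67) and 0.36 and 0.62 in the blocks. Without 3xTg 81 its ratio was 0.39. Psmd5 had 205 and 142 CPM, a log2 ratio of 0.53, but 19.4% of its counts lay in the cell 3xTg 24, at 3687 normalized counts against a 3xTg median of 125. Without that cell the ratio was 0.0158, and the blocks gave 0.76 and 0.11. Psmd10 had 67.9 and 62.7 CPM, a log2 ratio of 0.12 that was -0.56 and 0.76 in the blocks and -0.0149 without 3xTg 81.

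The ratio changed sign between blocks for 3 of the 4 core chaperones, of which Psmg3 and Psmg4 did not pass the filter. Among the 7304 genes that passed the share was 49.5%. Psmg1 had 29 and 28.5 CPM, with log2 ratios of -0.97 in the first and 2.19 in the second blocks and -2.32 between the WT blocks. Psmg2 had 0 to 123 normalized counts in 3xTg (median 19.4) and 0 to 583 in WT (median 8.35). Its sums were 31.7 and 47.1 CPM, a log2 ratio of -0.57, but the cell WT 6 held 15.9% of its counts, the ratio was -0.15 without it, and the blocks gave -1.17 and 0.28. Psmg4, below the filter, had 15.3 and 13.7 CPM and ratios of -0.07 and 0.74 in the blocks, and its ratio over all cells went from 0.17 to -0.17 without 3xTg 50. Psmg3, also below the filter, had 26.5 and 31.2 CPM and a ratio of -0.23 that was -0.23 and -0.52 in the blocks. That ratio was -1.05 without 3xTg 50, which held 21.3% of its counts, and 0.0055 without WT 14.

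A list of 31 symbols for other genes of the ubiquitin and proteasome pathway, which held both older and newer symbols of some genes, matched 27 genes in the table. Of these 23 passed. Their median log2 ratio was 0.19, and 19 of 23 were above 0, against 46.8% of all genes. Among genes with a mean normalized count of at least 100 the share above 0 was 59.8%. Of the 23, 6 were at least 1.5-fold higher in 3xTg (13.2% of all genes) and none was at least 1.5-fold lower (17%). The number higher was 4 to 7 over the scalings and thinning, with 0 lower in each, where 13.2% to 20.4% of all genes were higher. With the filter set within the blocks, 5 of 21 were higher and 0 lower in the first (24.8% and 16.2% of all genes), and 5 of 24 were higher and 2 lower in the second (17% and 32.7%). With the filter set over all cells, 6 of 23 were higher and 1 lower in the first blocks, against 1950 and 1236 of all 7304 genes. In the second blocks 4 were higher and 2 lower, against 1197 and 2337 of 7304. Ubb, a polyubiquitin gene, had 1355 to 69630 normalized counts in 3xTg (median 18406) and 1600 to 71040 in WT (median 11049). Its sums of 18793 and 14246 CPM were more than those of the 55 proteasome genes together in either genotype, and its log2 ratio of 0.40 was 0.17 and 0.64 in the blocks, within the range of the 6 DA markers over all cells (0.21 to 0.43). Every count of Ubb was fractional, and since it is made of repeated ubiquitin units, reads may be shared with other ubiquitin genes.

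The 6 genes past 1.5-fold were the shuttle factors Ubqln1 (log2 ratio 1.05) and Rad23b (0.94), the proteasome-binding Zfand5 (0.99), the ubiquitin-activating enzyme Uba1 (0.71), the ligase Ube3c (0.62) and the proteasome adaptor AI314180 (0.59). The ratios of Ubqln1 (1.91 and -0.10), Zfand5 (1.70 and -0.48), Rad23b (2.08 and -0.10) and AI314180 (1.32 and -0.72) changed sign between blocks. Those of Uba1 (0.96 and 0.19) and Ube3c (0.44 and 0.65) did not, but each was under 1.5-fold in 1 of the pairs. The call at 1.5-fold rested on single cells for Ube3c, which had 25.2% of its counts in 3xTg 89 and a ratio of -0.0692 without it, and for AI314180, whose ratio was 0.26 without 3xTg 24. It ended on leaving out any of 19 cells for Ube3c, any of 26 for AI314180 and either of 2 for Uba1 (0.54 without 3xTg 26), and for none of the others. Ubqln1, Rad23b, Zfand5 and Uba1 are also in the list that the study chose on these cells, so their differences are not independent evidence. Pomp, which matures the core particle, was at -0.09, the ubiquitin receptor Adrm1 at 0.33 (0.42 and 0.32 in the blocks) and Shfm1 at -0.20 (-0.31 and -0.18). The deubiquitinases Usp14 and Uchl5 were at 0.08 and 0.24, and Nfe2l1, the transcription factor of proteasome genes, at -0.03. By the mean over cells relative to the median gene the values were -0.46 for Pomp, 0.97 for Adrm1 and 0.25 for Shfm1. For Usp14, Uchl5 and Nfe2l1 they were 1.06, 0.72 and 0.98. By this mean 11 of the 23 were at least 1.5-fold higher (24.3% of all genes) and none at least 1.5-fold lower (23.1%). Nfe2l2, which acts through the antioxidant response element, had a count in 2 3xTg cells and 1 WT cell.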

How the data were processed

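Per the labels, each sample is 1 neuron, prepared with a single-cell low-input kit. Reads had been trimmed and mapped with Strand NGS 4.0 against RefSeq transcripts of mm10, duplicates had been removed, and the authors deposited estimated counts per gene and cell, many of them fractional. Whether counting used strand, and how reads were split, is not given in the sources used here, so reads of overlapping genes cannot be told apart. The deposited log2 values were normalized by the authors with DESeq2 and shifted per gene by an unstated amount, and served as an alternative only.

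From the counts, CPM of sums over cells (rounded counts), DESeq2-type size factors (median of ratios over 787 genes), log2(normalized count + 1), exact Poisson intervals at 95% and levels per kb of transcript were calculated. Lengths are medians of the RefSeq-matched GENCODE M21 transcripts and were found for 50 of 55 members. Genes entered if 1 or more counts were found in no fewer than 50% of all 68 cells, blind to genotype, and the fold used was 1.5. A fold of means is on the log2(value + 1) scale and understates low genes. Promoters are those of RefSeq.

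Values by genotype were given for the 6 members of largest and the 4 of smallest ratio (of like sign by the mean over cells), the catalytic, activator, inhibitor and chaperone genes, Psma1, Psmd14, and the 3 highest and 3 lowest per length. Psma2 and Psmc4 were added after their values were seen. The pathway list was taken without 1 gene that is not reported here. Members, rule and gene lists were chosen with earlier results of these data known. Alternatives were CPM, TMM factors, thinning, pseudocounts of 0.1 and 10, other filters, omission of cells with a marker of another type, blocks of label numbers, the authors' normalized values and leaving out each cell. Scripts were tested on simulated data. Python 3.11.15 (numpy 2.4.6, scipy 1.17.1, pandas 2.3.3, matplotlib 3.10.9) and R 4.3.3 with edgeR 4.0.16 (TMM) were used.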

Additional observations from a re-analysis of the deposited data

How the results depend on the processing

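The median log2 ratio of summed counts (0.13) was 0.23 with TMM factors, 0.21 with DESeq2 size factors, 0.0612 thinned, 0.0147 in the first and 0.28 in the second blocks. The ratio of all members together (0.10) was 0.11 by CPM per cell, 0.21 with TMM, 0.23 with DESeq2 factors, 0.0768 thinned, 0.11 without cells with a marker of another cell type, 0.0193 in the first and 0.18 in the second blocks. The median by the mean over cells (0.21) was 0.11 thinned, 0.12 and 0.26 with pseudocounts of 0.1 and 10, 0.46 unfiltered, 0.28 without cells with a marker of another cell type, and turned to -0.16 in the first blocks against 0.40 in the second. The difference in median share (0.0599 percentage points) was 0.141 with TMM, 0.0831 without cells with a marker of another cell type, 0.0816 in the second blocks, and turned to -0.0626 in the first.

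Members at least 1.5-fold higher (0) numbered 1 by CPM, 4 with TMM, 6 with DESeq2 factors, 1 thinned, 2 unfiltered, 2 without cells with a marker of another cell type, 2 in the first and 7 in the second blocks, against 14.1%, 17.5%, 20.4%, 13.6%, 19.15%, 13.8%, 24.8% and 17% of all genes in that order. Members at least 1.5-fold lower (1) numbered 2 with DESeq2 factors, 2 thinned, 0 with the study's filter, 2 unfiltered, 2 without cells with a marker of another cell type, 4 in the first and 3 in the second blocks, against 14.8%, 16.6%, 13.4%, 23.1%, 17.8%, 16.2% and 32.7% of all genes in that order. Members tested numbered 48 unfiltered, 40 in the first blocks and 42 in the second. Fewer members were tested with the study's filter (35). Leaving out 1 cell gave 0.13 to 0.32 for the median by the mean over cells, 0.0739 to 0.13 for the ratio of all members, 0 to 3 higher (3 without WT 63) and 1 to 3 lower (3 without 3xTg 30). It changed the number higher for 28 cells and the number lower for 35.

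By sums 13 of the 42 members had another sign in the first blocks than over all cells, Psme1, Psmb5, Psmb7 and Psmg1 among them, and 5 in the second, against 26.1% and 25% of all genes. Among the named members, values past 1.5-fold over all cells that turned in the first blocks were those of Psme4 (0.24 by sums, 0.0415 by cell means) and, by cell means, Psmd13 (-0.00532), Psme1 (-0.26), Psmf1 (-0.0649) and Psmg1 (-0.31). Of the other members Psma6 turned by cell means from 0.67 to -0.68, and in the second blocks Psmc4 went from -0.95 to 0.000965. Psmb9 turned to -1.43 by sums without cells with a marker of another cell type and ranged from -1.40 (without 3xTg 43) to 2.62 when 1 cell was left out. The cause was not tested. The DESeq2 factors for sums were chosen after seeing the data, as was the background at a mean normalized count of at least 100. No paired analysis was possible because the genotypes share no label number. Blocks, scalings and 1 cell decide which members pass 1.5-fold, and with 1 sample per genotype no value here separates genotype from mouse.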
